A study of Danio rerio with 6 samples.

Results

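The genes described here are those of heart muscle and of its regulators, measured in whole zebrafish embryos exposed to perfluorobutane sulfonamide (FBSA), a short-chain perfluoroalkyl compound. They were chosen by name: 36 gene names covering the cardiac sarcomere, cardiac transcription factors, signals and matrix of the endocardial cushions, calcium handling, and proteins of the muscle membrane and Z-disc. Of these, 35 matched the table, under 42 of its 24462 identifiers. Only myh7l had no match. A total of 34 identifiers, belonging to 31 names, reached 10 normalized counts in at least 3 libraries and were tested among 16890 genes. All 34 reached that level in all 6 libraries, so none was tested through 1 group alone.

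All embryos were of the Tropical 5D wild-type line and had been freed of the chorion. Control embryos were kept from 8 h after fertilization in 0.5% methanol, the solvent. FBSA embryos were kept over the same period in the same 0.5% methanol with 47 µM FBSA added, without renewal. Both groups were harvested at 48 h, with 10 embryos pooled per library and 3 libraries per group. Only the 3′ ends of transcripts were sequenced.

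In zebrafish, the linear heart tube is built early in development and loops into an atrium and a ventricle that are contracting by the time of harvest. Contraction rests on thick filaments of myosin sliding along thin filaments of actin, tropomyosin and troponin, and it is triggered by calcium released from the sarcoplasmic reticulum and pumped back after each beat. Transcription factors of the Nkx2, Gata, Tbx and Hand families specify the muscle and its chambers, and bone morphogenetic protein, versican and hyaluronan shape the cushions between atrium and ventricle.

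The heart is a small share of a whole embryo. In such bulk samples fewer cells of a type and less RNA per cell cannot be told apart, and many of the genes below are also used outside the heart. Libraries held 23906021 to 33356411 reads, with 20293 to 21367 genes detected in each. The marker genes chosen for heart muscle, skeletal muscle, endothelium, blood, neurons, lens and skin had reads where their names had a match. All 24462 identifiers of the table had reads in some library, so this does not show which cell types were present. Marker names without a match were 3 of 21 for fast muscle and 1 of 8 for slow muscle. For smooth muscle they were 1 of 11 and for blood 2 of 8. In a principal component analysis the first component, with 34.3% of the variance, ran from -65.5 for control replicate 2 to 54.0 for FBSA replicate 2. The other controls stood at -2.5 and -13.4 and the other FBSA libraries at 25.0 and 2.5, so the groups did not overlap. Several comparisons below are also given without both libraries numbered 2, which lay at the opposite ends.

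No heart gene passed the test. Of the 34 identifiers tested with limma, 0 were called higher and 0 lower at an adjusted p under 0.05, where 0.568% of all genes tested were called higher and 0.136% lower. The smallest adjusted p was 0.193, for BMP4. The estimates were nevertheless narrow for most genes: for 28 of the 34, the 95% interval lay within a 2-fold change in either direction. The intervals of the other 6 reached 2-fold.

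At an unadjusted p under 0.05, 8 of the 34 identifiers (23.5%) were higher with FBSA, beside 7.34% of all genes tested, and 0 were lower, beside 6.25%. Without control replicate 1, or without FBSA replicate 1, the count of 8 became 3, beside 7.83% and 6.18% of all genes, and without FBSA replicate 3 it became 5, beside 7.31%. In 10 of the 34 (29.4%) every FBSA library was above every control library, beside 10.0% of all genes, while in 0 every FBSA library was below, beside 9.91%. Without FBSA replicate 3 there were 11 above, beside 16.7% of all genes, and 5 below, beside 16.8%. Without any other single library 1 to 3 were below, beside 13.3% to 15.7% of all genes. Leaving out a library makes it easier for groups to stand apart, so these counts can only stay or rise. The median log2 fold change was 0.21, beside -0.0009 over all genes tested, and the values ran from -0.43 to 0.47. Without control replicate 2 the median was 0.11. Many of these genes are transcribed in the same cells, and so are not separate observations. The list was also chosen with earlier results of these data known, so its shares beside those of all genes are a description only.

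**Figure D1:**
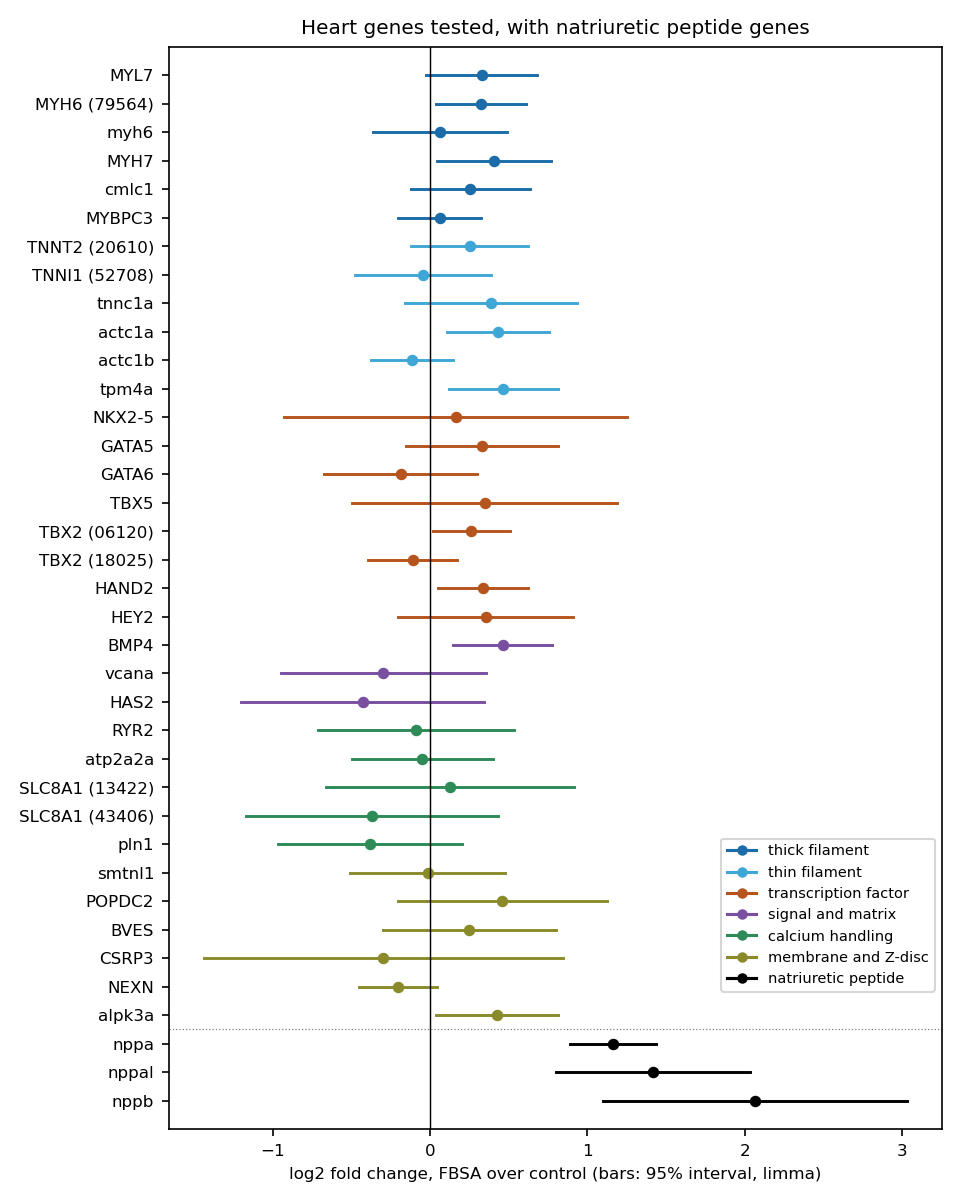
Log2 fold change (FBSA over control, horizontal axis) with its 95% interval for the 34 heart identifiers tested, grouped by role, and for 3 natriuretic peptide genes below them. The heart genes lie between -0.43 and 0.47, while nppa stands at 1.16. Numbers in brackets are the last digits of the gene identifier.

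The differences were not equal between libraries. Measured as the median over the 34 of the log2 difference from the control mean, control replicates 1, 2 and 3 stood at 0.02, 0.03 and 0.05. FBSA replicates 1, 2 and 3 stood at 0.17, 0.08 and 0.21. FBSA replicate 3 held the highest of the 6 values for 10 of the 34 genes, and control replicate 2 the lowest for 12.

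**Figure D2:**
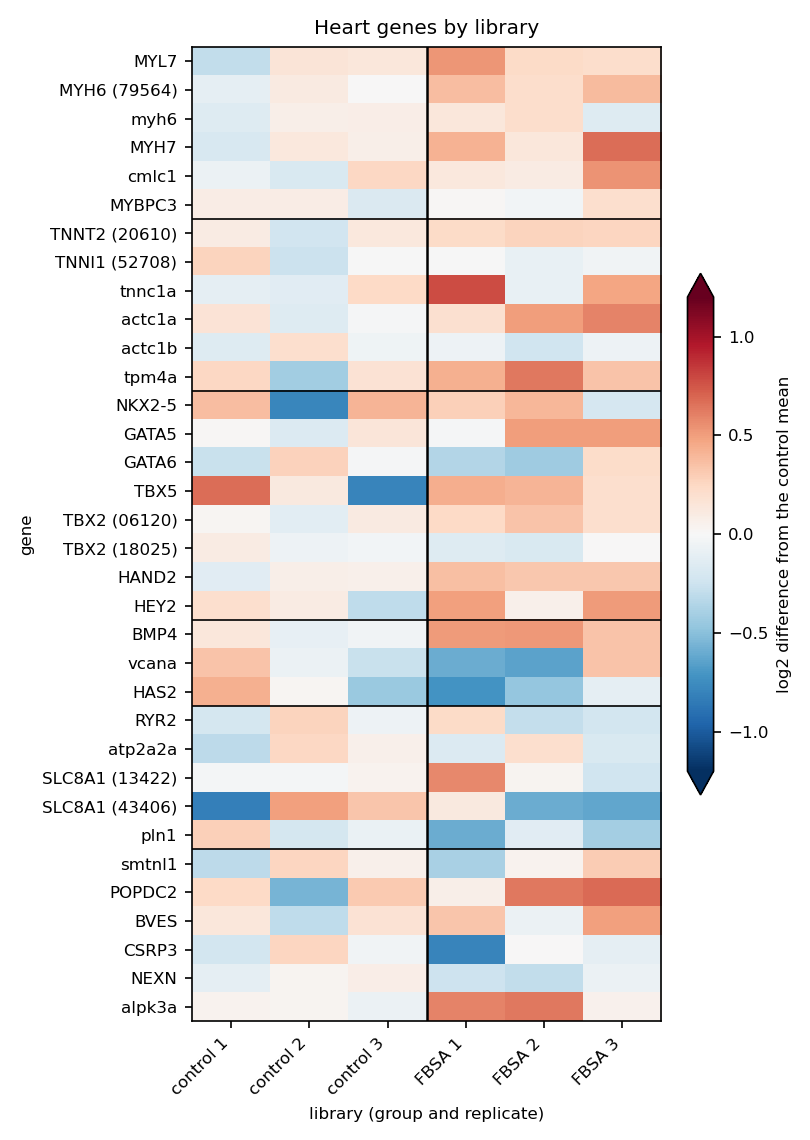
Log2 difference of each library (columns) from the control mean, for the 34 heart identifiers tested (rows, by role), on a colour scale from -1.2 to 1.2. FBSA replicate 3 holds the highest value for 10 rows and control replicate 2 the lowest for 12. Some rows of low expression spread widely within a group, such as TBX5 with 73.8, 49.8 and 26.1 normalized counts in controls.

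Among the thick filament genes, all 6 tested had estimates above 0, with a median log2 fold change of 0.29, and 0 passed the test. MYL7 (ENSDARG00000019096), the myosin regulatory light chain found throughout the zebrafish heart and much used as a marker of it, was measured at 469, 641 and 631 normalized counts in controls and 832, 676 and 666 with FBSA. The groups did not overlap, but FBSA replicates 2 and 3 lay close above control replicates 2 and 3. The means were 580.2 ± 96.7 and 724 ± 93.2 (SD, n = 3 each), a 1.25-fold difference with a 95% interval of 0.984 to 1.6 (log2 fold change 0.33 ± 0.16 SE, limma adjusted p = 0.402). Without control replicate 1, the lowest library, the log2 fold change of MYL7 was 0.18.

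Several identifiers carried a name for myosin heavy chain 6. The lower-case symbol myh6 (ENSDARG00000090637) is that of the atrial heavy chain in zebrafish. Its 3 control libraries held 167, 196 and 196 normalized counts and its FBSA libraries 204, 216 and 167. FBSA replicates 1 and 2 were above all controls and FBSA replicate 3 was level with the lowest control, with means of 186 ± 16.9 and 196 ± 25.7 (SD, n = 3 each; log2 fold change 0.07 ± 0.20 SE, limma adjusted p = 0.913). The identifier with the capital symbol MYH6 (ENSDARG00000079564) was measured at 568, 661 and 613 in controls and 793, 711 and 798 with FBSA. Every FBSA library was above every control library (1.25-fold, log2 fold change 0.32 ± 0.13 SE, limma adjusted p = 0.306). A further MYH6 identifier (ENSDARG00000114031) was too low to be tested, with 21, 1 and 2 reads in controls and 4, 5 and 2 with FBSA.

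MYH7 (ENSDARG00000079782), named after the mammalian heavy chain of slow and heart muscle, was measured at 423, 528 and 508 normalized counts in controls and 648, 530.4 and 768 with FBSA. The groups were apart, although FBSA replicate 2 was level with control replicate 2 (1.33-fold, log2 fold change 0.41 ± 0.17 SE, limma adjusted p = 0.306). In zebrafish the myosin heavy chain genes lie close in sequence and their names overlap: MYH7 is listed as another name of smyhc2, a slow skeletal muscle myosin, while vmhc, the ventricular myosin, is listed as another name of myh7. Which chamber or muscle the capital MYH6 and MYH7 identifiers belong to was therefore not settled, and how reads matching several myosins were counted was not given. The other thick filament genes were closer to 0. For the light chain cmlc1 the log2 fold change was 0.26 ± 0.17 SE (limma adjusted p = 0.551). For MYBPC3, the cardiac myosin binding protein that ties myosin to titin, it was 0.06 ± 0.12 SE (limma adjusted p = 0.864).

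The balance of atrial to MYH7 myosin was compared within each library, where it does not depend on scaling. The log2 ratio of myh6 to MYH7 was -1.34, -1.43 and -1.37 in controls and -1.66, -1.29 and -2.20 with FBSA. The control libraries lay close together and the FBSA libraries fell on both sides of them. The difference of means was -0.34 (exact permutation test, two-sided, p = 0.4, where the smallest p that 3 against 3 libraries allow is 0.1). With MYH6 (ENSDARG00000079564) in place of myh6 the difference was -0.08 (exact permutation test, two-sided, p = 0.6).

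**Figure D3:**
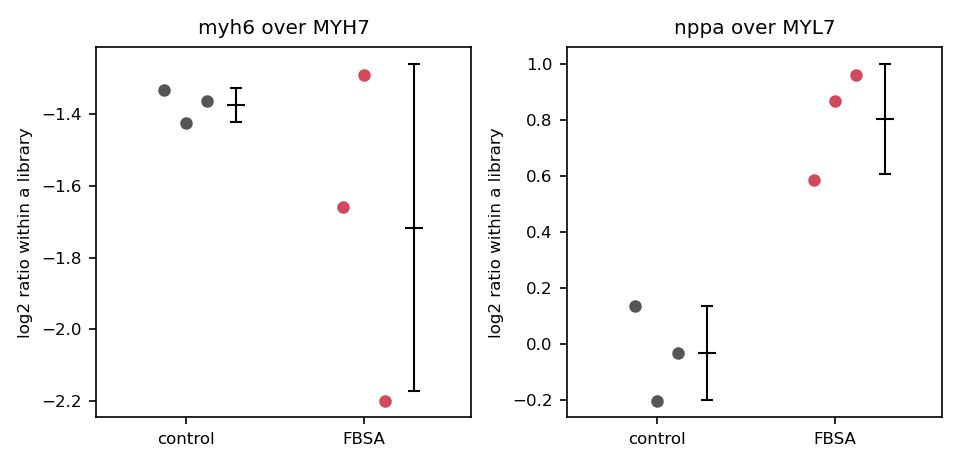
Log2 ratio within each library of myh6 to MYH7 and of nppa to MYL7 (points are libraries, lines are means with SD, n = 3 per group). The myosin ratio overlaps between groups, with means of -1.38 in controls and -1.72 with FBSA. The nppa to MYL7 ratio does not overlap, with means of -0.03 and 0.80.

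Of the 6 thin filament genes tested, 4 had estimates above 0, the median log2 fold change was 0.32, and 0 passed the test. The largest difference of all heart genes was that of tpm4a (ENSDARG00000023963), a tropomyosin needed for the heartbeat in zebrafish. It was measured at 3040.2, 1923 and 2885 normalized counts in controls and 3452, 3969.8 and 3241 with FBSA. The groups were apart, with control replicate 2 the lowest and FBSA replicate 2 the highest library. The means were 2616 ± 605 and 3554 ± 375 (SD, n = 3 each; 1.38-fold, log2 fold change 0.47 ± 0.16 SE, limma adjusted p = 0.225). Without both libraries numbered 2 the log2 fold change was 0.18. Next came actc1a (ENSDARG00000042535), a cardiac type of alpha-actin, with 686, 552 and 608 normalized counts in controls and 702, 865 and 929 with FBSA. Every FBSA library was above every control library, FBSA replicate 1 by little (1.35-fold, log2 fold change 0.43 ± 0.15 SE, limma adjusted p = 0.231). The gene tnnc1a (ENSDARG00000011400) encodes the troponin subunit that binds calcium. It was measured at 128, 126 and 164 normalized counts in controls and 238, 129.5 and 192 with FBSA. FBSA replicate 2 stood among the controls and the other FBSA libraries above them (log2 fold change 0.39 ± 0.25 SE, limma adjusted p = 0.532).

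The remaining thin filament genes showed smaller differences. TNNT2 (ENSDARG00000020610), the cardiac troponin subunit that binds tropomyosin, had 276, 221 and 283 normalized counts in controls and 302, 312 and 309 with FBSA. These groups were apart because the FBSA libraries lay within a narrow band above all controls (log2 fold change 0.25 ± 0.17 SE, limma adjusted p = 0.551). TNNI1 (ENSDARG00000052708), an inhibitory troponin subunit of slow and embryonic heart muscle, stood at -0.04 ± 0.20 SE on the log2 scale. The actin gene actc1b, which zebrafish also use in skeletal muscle, had means of 433857 ± 56577 normalized counts in controls and 398563 ± 27684 with FBSA (SD, n = 3 each; log2 fold change -0.12 ± 0.12 SE). A second identifier each of TNNT2 and TNNI1 had at most 6 reads in any library and was not tested.

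Actins, tropomyosins and troponins are families of related genes, and whether reads were divided among their copies was not tested. The 4 identifiers carrying the capital stem of a name whose suffixed symbol was already matched were kept apart from the 42. Among them ACTC1 was measured at 475, 199 and 394 normalized counts in controls and 499, 721 and 482 with FBSA (log2 fold change 0.74 ± 0.28 SE, limma adjusted p = 0.271). TPM4 was measured at 199, 227 and 210.1 in controls and 242, 299 and 329 with FBSA (log2 fold change 0.44 ± 0.18 SE, limma adjusted p = 0.317). Both had their groups apart, in the same direction as actc1a and tpm4a, and neither passed the test. TNNC1 and ATP2A2 had log2 fold changes of 0.20 ± 0.12 SE and 0.06 ± 0.11 SE.

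**Figure D4:**
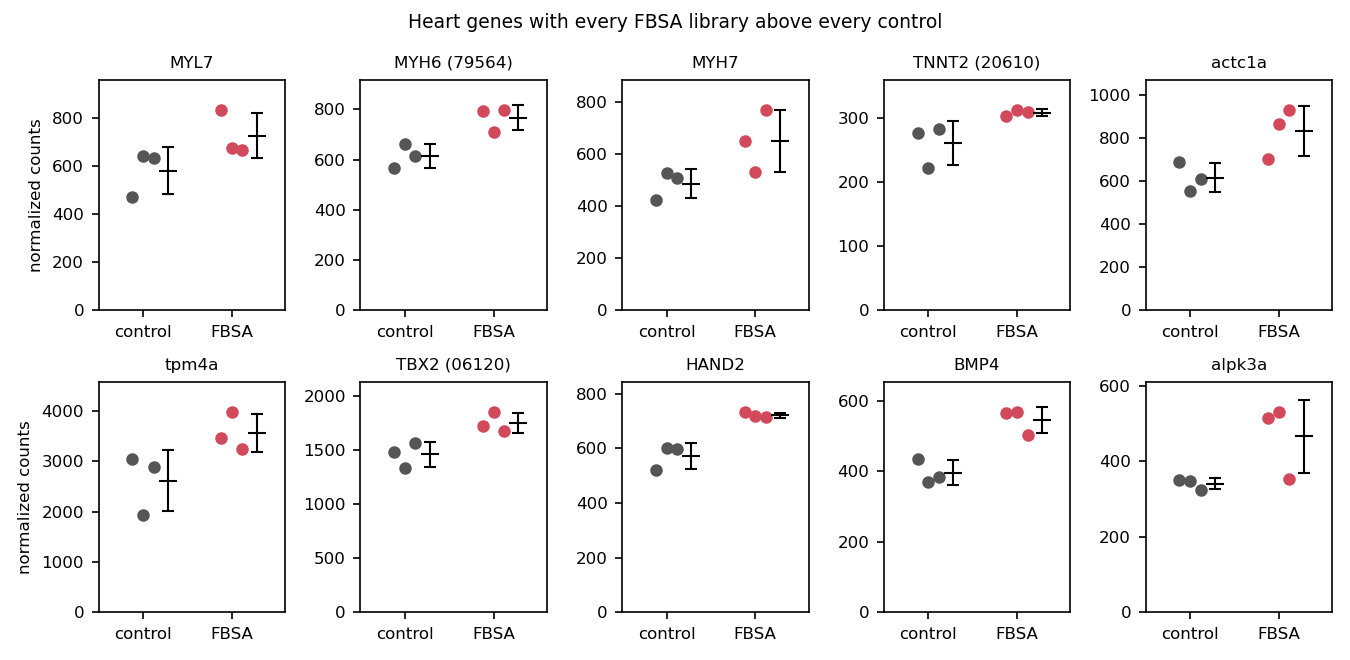
Normalized counts per library (points) with group means and SD (n = 3 per group) for the 10 heart identifiers in which every FBSA library was above every control library; each panel has its own vertical axis. The gap between groups is widest against the spread for BMP4 and HAND2 and nearly closed for MYH7 and alpk3a, where an FBSA library sits just above a control library.

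Among 8 tested identifiers of cardiac transcription factors, 6 had estimates above 0 with a median log2 fold change of 0.30. HAND2 (ENSDARG00000008305), which acts in the ventricle, the pharyngeal arches and the fins, was measured at 519, 600.2 and 596 normalized counts in controls and 732, 716 and 713 with FBSA. The FBSA libraries were nearly equal and all above the controls (1.26-fold, log2 fold change 0.34 ± 0.13 SE, limma adjusted p = 0.284). TBX2 was held by a pair of identifiers, and the capital symbol does not say which is tbx2b or its copy tbx2a. The gene product is a repressor that keeps chamber genes off in the canal between atrium and ventricle, and it also acts in the eye and other tissues. The first, ENSDARG00000006120, had 1477, 1332 and 1564 normalized counts in controls and 1721, 1846 and 1673 with FBSA, with the groups apart (1.2-fold, log2 fold change 0.26 ± 0.11 SE, limma adjusted p = 0.332). The other, ENSDARG00000018025, had 764, 684 and 699.6 in controls and 641, 632 and 717 with FBSA (log2 fold change -0.11 ± 0.13 SE, limma adjusted p = 0.747). The difference between the pair was not tested.

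HEY2 (ENSDARG00000013441), a Notch-responsive repressor known in zebrafish as gridlock, was measured at 107, 99.6 and 75.0 normalized counts in controls and 131, 96.7 and 133 with FBSA. FBSA replicate 2 stood among the controls and the other FBSA libraries above them (log2 fold change 0.35 ± 0.26 SE, limma adjusted p = 0.575). TBX5 (ENSDARG00000024894), needed for the heart and the pectoral fin, was measured at 73.8, 49.8 and 26.1 in controls and 62.3, 61.0 and 52.8 with FBSA. Its control libraries spanned all of its FBSA values (log2 fold change 0.35 ± 0.39 SE, limma adjusted p = 0.733). NKX2-5 (ENSDARG00000018004), an early specifier of heart muscle, was measured at 27.7, 11.9 and 28.4 in controls and 26.0, 28.2 and 18.3 with FBSA. Its 95% interval ran from 0.526-fold to 2.38-fold (-0.93 to 1.25 on the log2 scale). Changes of that size were not excluded (log2 fold change 0.16 ± 0.50 SE, limma adjusted p = 0.916).

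The zinc finger factors of the Gata family gave estimates on both sides of 0. GATA5 (ENSDARG00000017821), which in zebrafish acts in heart and endoderm, had means of 141 ± 15.0 and 179.5 ± 34.7 normalized counts (control and FBSA, SD, n = 3 each). GATA6 (ENSDARG00000103589), its relative in heart and gut, had means of 252 ± 47.9 and 224 ± 59.0. Neither difference passed the limma test, with adjusted p of 0.547 and 0.753. The third member, gata4 (ENSDARG00000098952), was too low to be tested, with 3, 6 and 0 reads in controls and 0, 0 and 1 with FBSA. The factor nkx2.7 held 20, 1 and 8 reads in controls and 7, 19 and 2 with FBSA. TBX20 held 13, 3 and 0 in controls and 10, 1 and 9 with FBSA. These 3 factors had too few reads to be compared.

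Of the signal and matrix genes, BMP4 had the smallest p of all heart genes. BMP4 (ENSDARG00000019995) is a secreted growth factor made in the canal between the chambers and in many other embryonic tissues. It was measured at 435, 369 and 385 normalized counts in controls and 565, 567 and 503 with FBSA. The lowest FBSA library was clearly above the highest control. The means were 396 ± 34.6 and 545 ± 36.5 (SD, n = 3 each; 1.38-fold, log2 fold change 0.46 ± 0.15 SE), with a limma adjusted p of 0.193 and an unadjusted p of 0.00793. The unadjusted p stayed under 0.05 in all 17 alternative fits, among them each that left out 1 library, while the adjusted p ran from 0.178 to 0.508.

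The cushion matrix genes among the members, HAS2 and vcana, had estimates below 0, and neither passed the test. HAS2 (ENSDARG00000036987), the enzyme that makes the hyaluronan of the cardiac jelly, was measured at 75.5, 56.9 and 40.9 normalized counts in controls and 33.8, 40.4 and 51.8 with FBSA. The groups overlapped (log2 fold change -0.43 ± 0.36 SE, limma adjusted p = 0.63). The versican gene vcana (ENSDARG00000103515), whose proteoglycan binds hyaluronan, was measured at 168, 126 and 110.2 in controls and 87.4, 84.5 and 169 with FBSA. FBSA replicate 3 was level with the highest control and the other FBSA libraries were below all controls (log2 fold change -0.30 ± 0.30 SE, limma adjusted p = 0.701). BMP10, a growth factor of the trabeculating heart in mouse, was held by a pair of identifiers too low to be tested. For ENSDARG00000061769 there were no reads in the controls and 0, 13 and 1 with FBSA, so all but 1 read came from FBSA replicate 2.

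The 5 calcium handling identifiers differed from the sarcomere genes in that 1 had an estimate above 0 and the median was -0.09, a difference that was not tested. The gene pln1 (ENSDARG00000069404) encodes phospholamban, the inhibitor of the calcium pump. It was measured at 119, 84.2 and 92.0 normalized counts in controls and 64.1, 88.2 and 73.2 with FBSA. The groups overlapped (log2 fold change -0.38 ± 0.27 SE, limma adjusted p = 0.566). The sodium-calcium exchanger SLC8A1, which removes calcium from the muscle cell, was held by a pair of identifiers. The capital symbol does not say which of them is slc8a1a or its copy slc8a1b. Nor does RYR2, given below, tell ryr2b from ryr2a. ENSDARG00000043406 was measured at 52.0, 130.5 and 117 normalized counts in controls and 100.4, 61.0 and 60.0 with FBSA, and control replicate 1 was the lowest of all 6 (log2 fold change -0.37 ± 0.37 SE, limma adjusted p = 0.701). Without control replicate 1 its log2 fold change was -0.78. ENSDARG00000013422 was measured at 37.7, 38.0 and 39.7 in controls and 58.0, 39.4 and 32.5 with FBSA (log2 fold change 0.13 ± 0.36 SE, limma adjusted p = 0.907). The calcium pump atp2a2a (ENSDARG00000029439) had means of 244 ± 47.2 and 235 ± 37.1 normalized counts, and the release channel RYR2 (ENSDARG00000003706) 76.5 ± 13.4 and 72.1 ± 14.9 (control and FBSA, SD, n = 3 each). The limma adjusted p of the pump was 0.94 and that of the channel 0.918.

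Of the 6 membrane and Z-disc genes, 3 had estimates above 0. The kinase gene alpk3a (ENSDARG00000078989), whose mammalian counterpart is needed for an ordered heart muscle, was measured at 350.5, 349 and 324 normalized counts in controls and 514, 529 and 354 with FBSA. FBSA replicate 3 lay just above the controls and the other FBSA libraries well above them (1.34-fold, log2 fold change 0.43 ± 0.18 SE, limma adjusted p = 0.32). POPDC2 (ENSDARG00000069922), a cAMP-binding membrane protein linked to cardiac conduction in zebrafish, was measured at 91.4, 52.2 and 96.5 in controls and 81.4, 120.2 and 124 with FBSA. Its groups overlapped (log2 fold change 0.46 ± 0.31 SE, limma adjusted p = 0.543), as did those of its relative BVES (log2 fold change 0.25 ± 0.25 SE). CSRP3 (ENSDARG00000101706), the muscle LIM protein, was measured at 15.9, 22.5 and 18.2 in controls and 10.4, 18.8 and 17.3 with FBSA. Its mean over all libraries, 17.2 normalized counts, was the lowest of the heart identifiers tested, and its 95% interval ran from -1.44 to 0.84 on the log2 scale. NEXN, the Z-disc protein nexilin, gave an estimate of -0.20 ± 0.11 SE on the log2 scale, and the smoothelin-like gene smtnl1 one of -0.02 ± 0.23 SE.

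Beside the muscle genes, 7 genes of natriuretic peptides and their receptors were tested. Of these, 2 were called higher, beside 0.568% of all genes tested, and 0 lower, beside 0.136%. Estimates were below 0 for 4, and the median log2 fold change was -0.06. The gene nppa, which heart muscle cells transcribe and which is used as a marker of chamber muscle, rose from 515, 556 and 618 normalized counts to 1247, 1234 and 1295, a 2.24-fold change (limma adjusted p = 0.00146), and was called in all 17 alternative fits. Its relative nppal rose 2.67-fold (limma adjusted p = 0.0436), a call lost in 10 of the 17, with an adjusted p of up to 0.151, among them each fit that left out 1 library. The peptide gene nppb had the largest estimate of the list but did not pass the test. It was measured at 32.7, 14.2 and 42.0 normalized counts in controls and 124.7, 177.4 and 71.1 with FBSA. Every FBSA library was above every control library (4.18-fold, log2 fold change 2.06 ± 0.44 SE, limma adjusted p = 0.0632). Set against MYL7 in the same library, the log2 ratio of nppa was 0.14, -0.20 and -0.03 in controls and 0.58, 0.87 and 0.96 with FBSA. The ratios of the groups did not overlap (difference 0.84, exact permutation test, two-sided, p = 0.1, the smallest p this design allows). The ratio was chosen after the change in nppa was known, and is a description of these libraries.

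Other genes of the same pathways gave a similar count of calls. Of 28 further sarcomere genes tested, 30 further cardiac regulators and 14 further genes of conduction and calcium, 0 in each group passed the limma test in either direction. Among the sarcomere genes, tcap, which caps titin at the Z-disc, was measured at 72.1, 11.9 and 189 normalized counts in controls and 264, 378 and 307 with FBSA. The groups were apart, but the controls varied widely (log2 fold change 2.48 ± 0.68 SE, limma adjusted p = 0.148). Among the conduction and calcium genes, JPH2, which joins the surface membrane to the calcium store, was measured at 601, 861 and 695 in controls and 1100.4, 919.9 and 1242 with FBSA (log2 fold change 0.60 ± 0.16 SE, limma adjusted p = 0.136). Among the regulators, TBX1, which acts in the pharyngeal region and outflow tract, was measured at 381, 275 and 317 in controls and 523, 557 and 391 with FBSA (log2 fold change 0.59 ± 0.18 SE, limma adjusted p = 0.188). The gene with the next smallest p in each of these lists was lower with FBSA. These were MYOM2 (log2 fold change -0.34 ± 0.11 SE, limma adjusted p = 0.193), ZFPM2 (-0.91 ± 0.31 SE, 0.232) and KCNJ3 (ENSDARG00000077165, -0.77 ± 0.29 SE, 0.266). Estimates were above 0 for 11 of the 28 sarcomere genes, 18 of the 30 regulators and 5 of the 14 conduction and calcium genes, beside 49.8% of all genes tested. In 5 of the 14 every FBSA library was below every control library, beside 9.91% of all genes, and in 1 above, beside 10.0%. Among the 28 sarcomere genes there were 3 below and 3 above, and among the 30 regulators 1 and 3. At an unadjusted p under 0.05, 3 of the 14 were lower, beside 6.25% of all genes, and 1 was higher, beside 7.34%. Among the 28 sarcomere genes there were 2 lower and 1 higher, and among the 30 regulators 1 and 4. Of 28 further genes of cushions and endocardium, 1 was called higher, beside 0.568% of all genes tested, and 0 lower, beside 0.136%. The gene called higher was FN1 (ENSDARG00000006526), a fibronectin, which rose 1.8-fold (limma adjusted p = 0.0266). Without FBSA replicate 1 its adjusted p was 0.0866 and without FBSA replicate 2 it was 0.106, and with scaling by library totals it was 0.0713.

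Markers of other muscle were measured beside the heart genes, since several names are shared. The lists are not separate sets. The gene atp2a1 is in the conduction and calcium list and also among the fast muscle markers. TNNC1 (ENSDARG00000037539) is a further sarcomere gene, a slow muscle marker and among the stem identifiers kept apart. Of 19 fast skeletal muscle markers, 3 fell in the limma test, beside 0.136% of all genes tested, and 0 rose, beside 0.568%. The 3 were a pair of ACTA1 skeletal actin identifiers, with log2 fold changes of -0.68 and -0.82, and the fast troponin TNNI2 (ENSDARG00000029995) at -0.90 (adjusted p = 0.00767, 0.0163 and 0.0194). All 3 lost the call without FBSA replicate 1, with adjusted p of 0.0562, 0.0629 and 0.0727. TNNI2 and the ACTA1 identifier ENSDARG00000055618 also lost it without control replicate 3 (adjusted p = 0.0781 and 0.0627), and TNNI2 without control replicate 1 (0.0507). At an unadjusted p under 0.05, 7 of the 19 were lower, beside 6.25% of all genes tested, and 1 was higher, beside 7.34%. In 8 of the 19 every FBSA library was below every control library, beside 9.91% of all genes tested. In 1 every FBSA library was above, beside 10.0%. This was another TNNI2 identifier, ENSDARG00000035958 (log2 fold change 0.75 ± 0.22 SE, limma adjusted p = 0.168). The fast markers summed to between 1110901 and 1154959 normalized counts in controls and between 1010527 and 1129629 with FBSA. Of 6 slow muscle markers and 8 smooth muscle markers, 0 passed in either direction. The slow markers summed to between 16436 and 19535 in controls and between 19095 and 21250 with FBSA. The smooth muscle markers summed to between 4142 and 4438 in controls and between 5002 and 7710 with FBSA. Only 3 of the 8 had estimates above 0, with a median log2 fold change of -0.18, and the sums followed DES (log2 fold change 0.61) and TAGLN (0.50). DES, with means of 2697 normalized counts in controls and 4217 with FBSA, is not a marker of smooth muscle alone. Its zebrafish names desma and desmb were in the list of further sarcomere genes, where they had no match. Whether slow or smooth muscle has a part in the values of the shared actin, tropomyosin and myosin names was not tested.

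Of 7 neuronal markers tested, 1 was called lower, beside 0.136% of all genes tested, and 0 higher, beside 0.568%. The gene called lower was ELAVL4, an RNA-binding protein of neurons, with a log2 fold change of -0.61 ± 0.12 SE (limma adjusted p = 0.0353). The call was lost in 6 of the 17 alternative fits, 5 of which left out 1 library (every library but control replicate 1), with adjusted p of 0.0562 to 0.141. At an unadjusted p under 0.05, 4 of the 7 were lower, beside 6.25% of all genes tested, and 1 was higher, beside 7.34%. The list summed to between 49730 and 52569 normalized counts in controls and between 40066 and 44462 with FBSA, so the sum of every FBSA library was below that of every control library. The sums mostly followed ELAVL4, with means of 23039 normalized counts in controls and 15168 with FBSA. ELAVL3, another neuronal marker, had means of 12408 and 12510 (log2 fold change 0.01 ± 0.09 SE, limma adjusted p = 0.971). Whether the makeup of the embryos has a part in the heart gene values was not tested.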

How the data were processed

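The 3 control and 3 FBSA libraries were grouped by the treatment in the labels. Per the labels' protocols, the libraries were single-end QuantSeq 3′ FWD. The genome build was GRCz11, and DESeq2, HTSeq and STAR were used, per the submitters' processing notes. Versions, strand setting and how reads with several matches were counted are not given in the sources used here. Nor is it stated whether the pools came from separate clutches, so the p-values cover only the spread among these pools.

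The authors deposited log2 values with the form of a variance-stabilising transformation. The header names stand 1 cell to the left of their values and were shifted. Read unshifted, the column of control replicate 3 would carry an FBSA name. With the transformation undone, values times a size factor per library came out as whole reads: 100.0% were within 0.1 of an integer and the farthest was 0.0172 away. Normalized counts are these reads divided by the size factor.

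The test was limma 3.58.1 (R 4.3.3) on log2(normalized count + 1), two-sided, with a mean-variance trend. It took the 16890 genes that reached 10 normalized counts in 3 libraries, and p-values were adjusted over all of them by Benjamini-Hochberg, with 0.05 as threshold. Fold changes on this scale understate those of low genes. The fit was also run on simulated counts with an assumed spread. That run does not show how small a change could be called in these libraries.

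The members and all lists were chosen with earlier results of these data known. Names were matched by symbol (27), by capital stem (6) or by a synonym in a RefSeq table of assembly GRCz12tu (2: nkx2.5 to NKX2-5, pln to pln1). A capital stem does not tell gene copies apart. Identifiers named TBX2, SLC8A1, RYR2 and TNNT2 may be tbx2a, slc8a1b, ryr2a and tnnt2b, which are not members. Those named TNNI1 may be tnni1a, which is in the slow muscle marker list. Of the 24462 identifiers, 22817 have a symbol. Values in every library are given for the 3 largest differences of each role, for an unadjusted p under 0.05, and for myl7, myh6, myh7, nkx2.5, gata4 and bmp4. Of other lists, genes past the threshold and at most 2 more were named. TNNT2, TNNI2 (ENSDARG00000035958), nkx2.7, TBX20, BMP10, ACTC1, TPM4 and ELAVL3 were added after their values were seen. Alternatives covered pseudocount, filter, scaling, the deposited log2 values, robust moderation, limma-voom, a replicate block, and leaving out libraries.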

Additional observations from a re-analysis of the deposited data

How the results depend on the processing

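The counts of heart genes called, 0 higher and 0 lower, were the same in all 17 alternative fits, with the stem identifiers included, and at adjusted p thresholds of 0.01 and 0.10. The count higher at an unadjusted p under 0.05 (8) ran from 3 to 8 when 1 library was left out, being 3 without control replicate 1 or FBSA replicate 1 and 5 without FBSA replicate 3. The count lower (0) ran from 0 to 1. The median log2 fold change (0.21) was 0.14 with no filter, 0.080 on the deposited log2 values, 0.14 without both libraries numbered 2, and 0.11 to 0.21 with 1 library left out. The count of genes with the groups apart (10 above, 0 below) was 12 to 16 with 1 library left out, with 10 to 13 above and 1 to 5 below, beside 13.3% to 16.8% of all genes in each direction. Without both libraries numbered 2 it was 16 (13 above and 3 below, beside 21.3% and 21.1%). With library totals 8 were above and 1 below (beside 8.21% and 12.2%), and with upper-quartile scaling 7 and 1 (beside 9.08% and 10.4%). The myh6 to MYH7 ratio ran from -0.55 to -0.10 and the nppa to MYL7 ratio from 0.75 to 0.95 with 1 library left out.

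Of 577 values of single genes under the alternatives, 21 reversed, in 11 genes, and 0 passed the threshold. Without both libraries numbered 2, the log2 fold change was 0.044 for actc1b, -0.35 for NKX2-5, 0.074 for GATA6, 0.14 for RYR2 and 0.083 for smtnl1. With 1 library left out it ran from -0.012 to 0.18 for myh6, -0.027 to 0.11 for MYBPC3, -0.17 to 0.089 for TNNI1, -0.23 to 0.37 for NKX2-5, -0.049 to 0.68 for TBX5, -0.25 to 0.044 for RYR2, -0.21 to 0.077 for atp2a2a, -0.10 to 0.31 for SLC8A1 (ENSDARG00000013422) and -0.18 to 0.17 for smtnl1. The cause was not tested. The deviations of same-numbered libraries had correlations of 0.02, -0.14 and -0.005, beside -0.14 to 0.13 for differently numbered ones. So few values cannot show whether the numbers pair the samples. With the replicate block 0 heart genes were called, 6 were higher at an unadjusted p under 0.05, and the median log2 fold change was 0.21. With the block FN1 and ELAVL4 lost their calls (limma adjusted p = 0.133 and 0.131), as did nppal (0.103).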
